A study of Drosophila melanogaster with 2 samples.

Results

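The 9 genes EcR, usp, Eip75B, Eip74EF, Eip78C, Eip93F, Hr4, br and ftz-f1 encode the ecdysone receptor and transcription factors that respond to or modulate the ecdysone signal, and were selected by symbol from 13968 protein-coding genes of Drosophila melanogaster. Chromatin binding of ADD1 (CG8290), a protein with an ADD domain known as a partner of heterochromatin protein 1, was measured at them by ChIP-seq. The material was whole embryos of mixed sex, aged 0 to 14 hours, from a transgenic line that stably expressed CG8290 with GFP at the C terminus. All libraries belonged to this 1 group, with 2 biological replicates numbered 2 and 3, and no untagged or input sample was used here. A free-text label calls both samples input controls, whereas their antibody label names CG8290, and they were treated as ChIP. The promoter that drives the tagged gene is not given in the sources used here. In whole embryos a strong signal in few cells and a weaker signal in many cannot be told apart.

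A region of a deposited list was assigned to a gene when its summit, the position of highest signal, lay in the gene body or within 500 bp of one of its annotated start sites. The optimal list, which the authors cut by IDR (the irreproducible discovery rate, which scores how well a pair of ranked lists match), held 2478 regions, 20 of them at these genes. The list for both replicates pooled held 30000 regions, peaks and background together, 188 of them at these genes. The optimal list was identical to the strongest 2478 regions of the pooled list. The genes were chosen with results of these data known, so counts are given as descriptions without tests. Signal is the authors' value per region on an unstated scale, comparable within a list only, and read depth is unknown.

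Ecdysone is the steroid hormone that times molting and metamorphosis in insects, and a pulse during mid-embryogenesis accompanies the large cell movements and cuticle formation of the late embryo. The hormone binds a heterodimer of the nuclear receptors EcR and Usp, which activates a small set of early genes. These encode transcription factors such as Eip75B, Eip74EF and Broad, which in turn regulate each other and large sets of late genes. Many of the genes are long, with nested promoters that give rise to several isoforms.

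Optimal regions lay at 4 of the 9 genes: EcR (4 regions), Eip75B (7), Hr4 (6) and ftz-f1 (3). The sequences of 7 of these regions are shown to set the start site regions beside the intronic ones. They come from the RefSeq sequence of the dm6 assembly and are printed in the direction of transcription. Capitals mark matches to GAGAG (the core of sites of GAGA factor), CGATA (part of sites of BEAF-32 and DREF) or AGGTCA (a single repeat recognised by many nuclear receptors), each on either strand. The first is the 200 bases before the start of Eip75B-RC (chr3L:17999822-18000021, minus strand), where the strongest region of Eip75B lay. The next 2 are the 200 bases before the starts of ftz-f1-RC and ftz-f1-RD (chr3L:18765745-18765944, minus strand) and of ftz-f1-RB (chr3L:18801310-18801509, minus strand). The remaining 4 are 201 bases centred on intronic summits. They are the strongest region of Hr4 (chrX:1947645-1947845, plus strand), a weaker one of Hr4 with 3 CGATA matches (chrX:1963875-1964075, plus strand), the strongest intronic region of Eip75B (chr3L:18005095-18005295, minus strand) and the intronic region of ftz-f1 (chr3L:18771721-18771921, minus strand), the only one of all 20 with AGGTCA.
Eip75B-RC start: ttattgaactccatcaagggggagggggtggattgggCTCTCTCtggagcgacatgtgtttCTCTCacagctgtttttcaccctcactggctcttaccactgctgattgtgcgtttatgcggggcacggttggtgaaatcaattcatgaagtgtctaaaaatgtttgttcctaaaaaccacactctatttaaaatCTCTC
ftz-f1-RC and RD start: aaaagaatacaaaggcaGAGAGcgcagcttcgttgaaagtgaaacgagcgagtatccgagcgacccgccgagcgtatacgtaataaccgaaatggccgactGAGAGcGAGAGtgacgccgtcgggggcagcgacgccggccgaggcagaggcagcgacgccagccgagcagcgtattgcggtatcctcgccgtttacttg
ftz-f1-RB start: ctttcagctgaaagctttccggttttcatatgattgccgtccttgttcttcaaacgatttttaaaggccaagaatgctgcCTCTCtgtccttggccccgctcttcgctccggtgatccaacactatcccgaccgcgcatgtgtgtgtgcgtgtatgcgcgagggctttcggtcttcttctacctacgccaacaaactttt
Hr4 strongest intronic summit: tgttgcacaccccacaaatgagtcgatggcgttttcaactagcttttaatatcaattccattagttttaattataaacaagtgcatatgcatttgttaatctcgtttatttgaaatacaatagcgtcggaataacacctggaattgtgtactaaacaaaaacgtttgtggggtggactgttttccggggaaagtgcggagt
Hr4 intronic summit with CGATA: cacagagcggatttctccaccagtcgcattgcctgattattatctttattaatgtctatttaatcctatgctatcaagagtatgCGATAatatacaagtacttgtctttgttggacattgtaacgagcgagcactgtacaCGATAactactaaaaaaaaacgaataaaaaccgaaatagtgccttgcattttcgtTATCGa
Eip75B strongest intronic summit: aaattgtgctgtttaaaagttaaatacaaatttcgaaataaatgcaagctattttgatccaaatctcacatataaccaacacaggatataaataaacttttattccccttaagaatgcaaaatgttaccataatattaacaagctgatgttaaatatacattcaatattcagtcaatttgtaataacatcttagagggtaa
ftz-f1 intronic summit: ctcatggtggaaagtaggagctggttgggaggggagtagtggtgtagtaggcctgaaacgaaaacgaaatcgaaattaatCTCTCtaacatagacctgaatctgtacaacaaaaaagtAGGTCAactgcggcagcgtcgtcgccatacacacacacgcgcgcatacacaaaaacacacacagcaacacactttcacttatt

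The start site sequences printed here hold GAGAG on either strand, 4 times before Eip75B-RC with a pair of overlapping matches, 3 times before ftz-f1-RC and RD, and 1 time before ftz-f1-RB. The strongest intronic sequences of Hr4 and Eip75B hold no match to the motifs searched, whereas that of ftz-f1 holds GAGAG beside AGGTCA. The start site stretches end at the start and are not centred on summits, unlike the intronic ones, so their matches are not directly comparable. The summit at Eip75B-RC lay 14 bp downstream of the start, outside the printed bases, and the 301 bases around it held 2 matches to GAGAG. In the wider windows of 301 bases around summits, GAGAG was in 7 of the 15 intronic regions beyond 500 bp of a start site and in all 4 regions at start sites. The sequence at the Eip75B intronic summit is rich in A and T, with 27.9% GC over 301 bases, the lowest among the 20 regions. The highest, 54.5%, was at the start of ftz-f1-RC and RD, where the 301 bases around the summit held 11 matches to GAGAG.

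The 9 genes spanned 575.4 kb together (gene bodies joined with the start site windows). The optimal list had 20 regions there, or 0.0348 per kb, against 0.0142 per kb over the 1056 protein-coding genes of 20 kb or more and 0.0272 per kb over all 13968. Those totals count a region again for each gene it overlaps. An optimal region in the body or at a start site was found at 4 of the 9 genes, while 15.5% of all protein-coding genes and 38.3% of those of 20 kb or more had one. All of the 9 genes except usp exceed 20 kb. The median span of these longer ones was 66.2 kb, against 36.8 kb over the 1056 genes. An optimal region within 500 bp of a start site was found at EcR, Eip75B and ftz-f1, 3 of the 9 genes, against 12.6% of all protein-coding genes and 19.3% of those of 20 kb or more. The shares of genes are matched neither for span, even among those of 20 kb or more, nor for the number of start sites per gene. The median over the 9 genes was 0 optimal regions per kb, as it was over all protein-coding genes and over those of 20 kb or more. The genes therefore fell into 4 with 3 to 7 optimal regions and 5 with none.

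**Figure D1:**
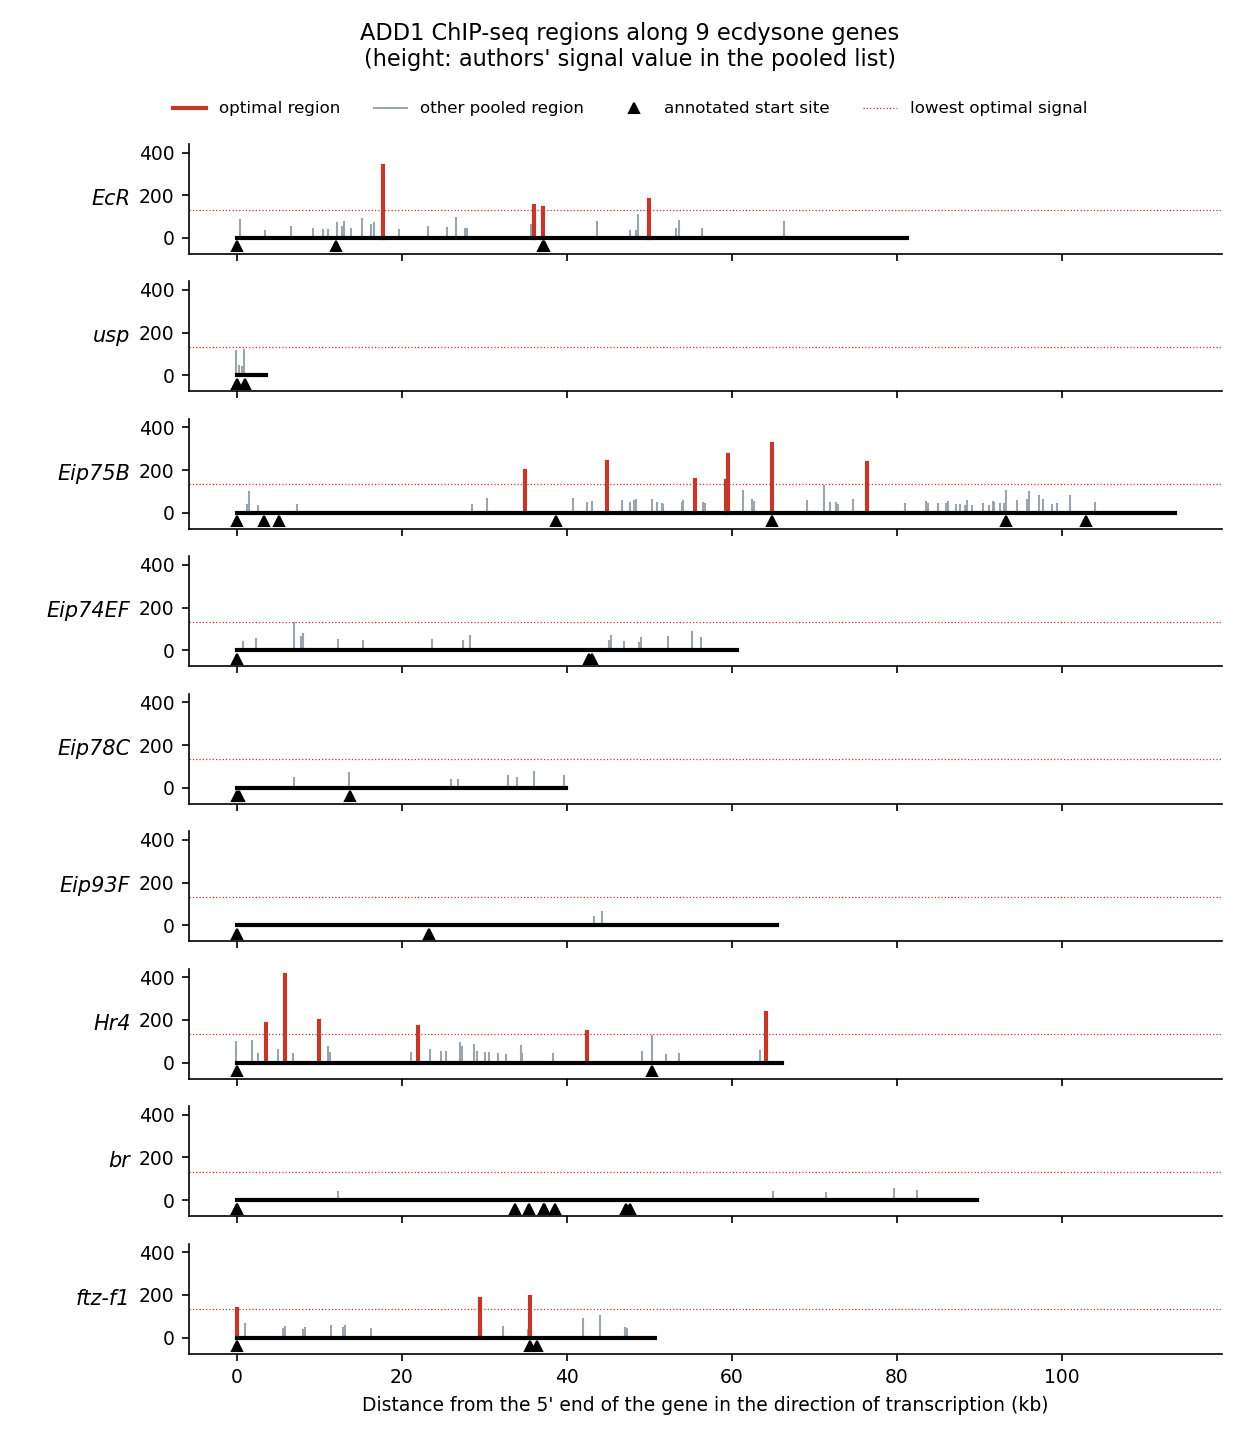
Regions of the pooled list along the 9 genes, drawn from the 5′ end of each gene in the direction of transcription (kb), with the authors' signal as height. Red lines are the 20 optimal regions, grey lines the other pooled regions, triangles the annotated start sites and the dotted line the lowest optimal signal of 132.9. Eip75B and Hr4 carry most red lines, all but 1 of them away from the triangles, and br and Eip93F are nearly empty.

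Most of the optimal regions lay inside introns and far from start sites. Of the 20, 16 lay beyond 500 bp of every start site of their own gene (80.0%), against 528 of 776 regions (68.0%) at protein-coding genes of 20 kb or more. These shares are not matched for length, as the median span was 65.9 kb over the 9 genes and 36.8 kb over the others. In 15 of the 20 cases the distance exceeded 2 kb. Summits were in introns in 17 cases, including the start site regions at EcR and at ftz-f1-RC and RD, which lie in introns of longer isoforms. Only 1 of the 20 was shared with another gene, the region at the start of ftz-f1-RB, which is also at the start of lncRNA:CR45939. The median signal of the 20 was 184.2, against 183.7 over the whole optimal list, and 10 of the 20 belonged to its stronger 1239 regions. The lowest signal of the whole optimal list was 132.9. Among the regions of the 9 genes, the weakest inside that list was at ftz-f1 (134.6, rank 2423) and the strongest outside it at Eip74EF (127.9, rank 2676).

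The receptor gene EcR encodes the ecdysone-binding nuclear receptor and lies on 2R (6087873 to 6169087, minus strand). Its strongest optimal region, at 6151356 to 6151547, had a pooled signal of 338.4 (rank 285). Replicate 2 gave it 141.3 (rank 473) and replicate 3 194.0 (rank 199), each on its own list's scale. It lay 5699 bp downstream of the start of EcR-RD and EcR-RE, in an intron of 19.9 kb, and at 192 bp was narrower than the 444 bp of most optimal regions. The next, 12786 bp into an isoform started by EcR-RG, lay in an intron of 27.8 kb with a signal of 177.3 (rank 1331). Both were among the strongest 2478 regions of each replicate.

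The neighbouring starts of EcR-RG and of EcR-RB and EcR-RC shared the start site region of this gene. Its summit lay 65 bp upstream of EcR-RB and EcR-RC with a signal of 140.5 (rank 2235), and a further optimal region stood 1192 bp upstream (147.6, rank 2028). The ranks of both differed widely between replicates. The start site region ranked 9353 in replicate 2 and 1400 in replicate 3, although another region of replicate 2 at that start ranked 3292. The upstream one ranked 1106 in replicate 2, against 3255 in replicate 3. The other start sites had pooled regions below the optimal threshold, with a signal of 82.54 at EcR-RA (rank 5955) and 68.76 at EcR-RD and EcR-RE (rank 8268). Weaker pooled regions in the body included summits at tRNA genes nested in the introns, with a signal of 93.27 at tRNA:Arg-ACG-1-1 and tRNA:Lys-CTT-1-1, and 90.57 at tRNA:Asn-GTT-1-3.

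The partner gene usp encodes the RXR-type receptor that dimerises with EcR, and was the shortest of the 9 (X 2038798 to 2042311, minus strand). It had no optimal region, but a pooled region lay at each of its start sites, below the optimal threshold. The region 91 bp upstream of usp-RA had a signal of 119.5 (rank 3065), with ranks of 2979 in replicate 2 and 4732 in replicate 3. The region 89 bp upstream of usp-RB had a signal of 112.9 (rank 3397), with ranks of 6976 in replicate 2 and 2627 in replicate 3. Replicate 2 thus ranked the usp-RA region higher and replicate 3 the usp-RB region. The gene lies within the span of Actn, an alpha-actinin gene, and CG4313 starts between its 2 start sites, so these regions cannot be assigned to usp alone. With 4 pooled regions on 4.014 kb usp had the highest pooled density of the 9 genes, 0.997 per kb. Each of these 4 regions overlaps the next, however, so they may be counted as a single stretch on this short gene. Its density was also highest in replicate 2 (0.747 per kb, 3 regions), but in replicate 3 it was 0.498 per kb (2 regions), below Eip75B (0.613) and EcR (0.563).

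Among the early genes, Eip75B, which encodes a heme-binding nuclear receptor of the Rev-erb type, had the most optimal regions (7 on 114.2 kb, 0.0613 per kb). All 7 lay in a stretch of 41.5 kb in the middle of the gene (3L 17950953 to 18064696, minus strand), from 34.9 to 76.4 kb from its 5′ end. Of its 7 start sites, that of Eip75B-RC had an optimal region. Its summit was 14 bp downstream of the start with a signal of 322.4 (rank 312). Replicate 2 gave it 160.4 (rank 327) and replicate 3 159.6 (rank 339). The start of Eip75B-RA had a pooled region of signal 101.3 (rank 4118). At the starts of Eip75B-RG, Eip75B-RB, Eip75B-RE and Eip75B-RF no list had a region. At Eip75B-RD each replicate list had 1 weak region and the pooled list none.

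The other 6 optimal regions of Eip75B lay in 3 introns. The intron of 25.5 kb upstream of Eip75B-RC held 4 of them, with signals of 269.9, 236.7, 156.0 and 147.9 (ranks 495, 702, 1807 and 2020). The strongest and the weakest of these overlap each other and have summits 5374 and 5577 bp upstream of Eip75B-RC, so they may be counted as 1 stretch. The intron of 21.5 kb downstream of Eip75B-RC held a region of signal 231.5 (rank 745), and the intron of 32.2 kb upstream of Eip75B-RG one of signal 195.0 (rank 1057). In the replicates the strongest intronic region ranked 321 in replicate 2 and 957 in replicate 3, and that at 231.5 ranked 499 in replicate 2 and 1044 in replicate 3. The strongest 2478 regions of each replicate's list included 9 at Eip75B in replicate 2 and 6 in replicate 3, or 7.50 ± 2.12 (SD, n = 2).

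The early gene Eip74EF, which encodes ETS-domain transcription factors, had no optimal region on 61.15 kb of 3L (17558672 to 17619325, minus strand), and no region of any list at its 3 start sites. Its strongest pooled region, 6910 bp downstream of the start of Eip74EF-RA, Eip74EF-RC and Eip74EF-RE, had a signal of 127.9. That region ranked 3893 in replicate 2 and 2152 in replicate 3, so it was among the strongest 2478 regions of replicate 3 alone. The pooled list had 18 regions at this gene, replicate 2 18 and replicate 3 19. An optimal region stood 1128 bp beyond its 3′ end, at CycT (signal 159.0), a gene for a cyclin of the elongation factor P-TEFb.

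The early gene br (Broad) encodes zinc-finger proteins with a BTB domain and has 16 annotated transcripts from 9 start sites on 90.24 kb of X (1575132 to 1664869, plus strand). No list had a region at any of these start sites. The pooled list had 5 regions in the whole gene, replicate 2 5 and replicate 3 8. The strongest, in a coding exon, had a signal of 52.84 (rank 13267). The gene lies entirely within Mur2B, a mucin-related gene on the other strand, which shares those regions. At 0.0554 pooled regions per kb, br was sparser than 840 of the 1056 protein-coding genes of 20 kb or more. The sequence around it was sparse too, with 0.0500 pooled regions per kb in the 50 kb to either side. These flanks held 1 optimal region, 4509 bp beyond the 3′ end of br at CG3740 and hfw (signal 156.9, rank 1783).

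**Figure D2:**
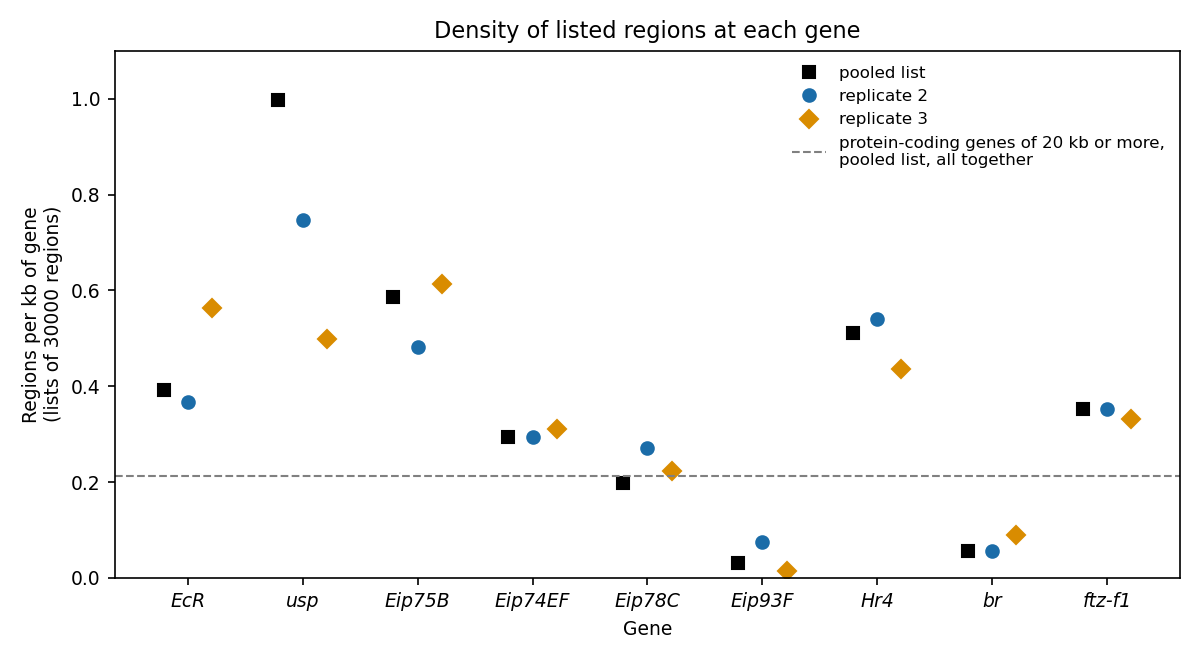
Regions per kb of gene at each of the 9 genes, in the pooled list (squares) and the lists of replicate 2 (circles) and replicate 3 (diamonds), each of 30000 regions. The dashed line is 0.213 per kb, the pooled density over protein-coding genes of 20 kb or more; Eip93F and br lie below it in all 3 lists, and EcR, usp, Eip75B, Eip74EF, Hr4 and ftz-f1 above it.

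The gene Eip78C encodes a nuclear receptor related to Eip75B. It had 8 pooled regions on 40.40 kb of 3L (21226609 to 21266503, plus strand), 11 in replicate 2 and 9 in replicate 3, and no optimal region. Its strongest had a signal of 75.26 (rank 7025), 22263 bp downstream of the start of Eip78C-RB. A region at that start, 111 bp upstream, had a signal of 67.54 and ranked 25956 in replicate 2 and 6069 in replicate 3. Of the 1056 protein-coding genes of 20 kb or more, 536 had a higher density than its 0.198 pooled regions per kb, and 519 a lower one.

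The gene Hr4 encodes an orphan nuclear receptor that modulates the response to ecdysone, and had the highest density of optimal regions of the 9 genes (6 on 66.52 kb, 0.0902 per kb). Of the 1056 protein-coding genes of 20 kb or more, 42 had a higher density. The gene lies on X (1941940 to 2007956, plus strand). Its strongest region, at 1947635 to 1947828, had the highest signal of all 20 (411.7, rank 155). Replicate 2 gave it 219.3 (rank 144) and replicate 3 187.1 (rank 222). It lay 5805 bp downstream of the start that 7 transcripts share, in an intron of 10.4 kb, and like the strongest region of EcR it was narrow (194 bp).

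The same intron of Hr4 held regions of signal 197.1 and 180.1, at 10024 and 3480 bp from that start. The weaker of these ranked 4828 in replicate 2 and 522 in replicate 3, a wide gap between the replicates. Other introns held regions of signal 168.9 and 141.4. The sixth region (234.5, rank 721) lay in the 3′ untranslated region of the gene, at 64.1 kb from the 5′ end, with ranks of 933 in replicate 2 and 692 in replicate 3. No optimal region lay at either start site of Hr4. The pooled region at Hr4-RE and Hr4-RF, 94 bp upstream, was near the threshold with a signal of 124.7 (rank 2817). That at the start shared by 7 transcripts, 112 bp upstream, was weaker at 94.70 (rank 4651) and ranked only 18232 in replicate 2, against 4009 in replicate 3. The gene usp lies 30.8 kb away from Hr4.

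The gene ftz-f1 encodes a nuclear receptor of the NR5A type, known as a cofactor of Fushi tarazu in the early embryo and as a competence factor for later ecdysone pulses. It lies on 3L (18750607 to 18801309, minus strand), and 2 of its 3 optimal regions were at start sites, against 1 each at EcR and Eip75B. Among the strongest 2478 regions of replicate 2 it also had 2 at start sites, but in replicate 3 it had 1, as did EcR and Eip75B. The start of ftz-f1-RC and RD had a summit 90 bp upstream with a signal of 188.4 (rank 1159), ranked 1262 in replicate 2 and 1236 in replicate 3. The start of ftz-f1-RB had one 13 bp upstream with a signal of 134.6, ranked 1223 in replicate 2 and 3737 in replicate 3. The start of ftz-f1-RA had no region in any list. The third region lay 6077 bp upstream of ftz-f1-RC and RD in an intron of 31.8 kb (signal 180.1), with ranks of 1399 in replicate 2 and 1424 in replicate 3.

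The gene Eip93F encodes a transcription factor required for the death of larval salivary glands and for adult development. It was the sparsest of the 9 in the pooled and replicate 3 lists, while br was sparser in replicate 2 (0.0758 per kb at Eip93F and 0.0554 at br). On 65.93 kb of 3R (21949114 to 22014539, plus strand) the pooled list had 2 regions, replicate 2 5 and replicate 3 1. Neither of its start sites had a region in any list, and its strongest pooled region had a signal of 61.20 (rank 10133). At 0.0303 pooled regions per kb it was sparser than 921 of the 1056 protein-coding genes of 20 kb or more. The nearest optimal region was 13012 bp beyond its 3′ end, at Cchl and ND-42 (signal 409.1). The flanks of 50 kb to either side held 14 pooled regions.

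Over the 35 start sites of the 9 genes, 13 had a pooled region within 500 bp and 5 an optimal one, with those of EcR-RG and of EcR-RB and EcR-RC sharing 1 region. By gene, 6 of 9 had a pooled region at a start site, against 48.9% of all protein-coding genes. These shares by gene are not matched for the number of start sites, 35 at the 9 genes and 19275 at the 13968 protein-coding genes. The share of those 19275 start sites with a pooled or optimal region was not counted. The 13 and 5 of 35 therefore cannot be called high or low. The 3 genes with no such region were Eip74EF, Eip93F and br, and each of the 3 lacked one in both replicate lists as well.

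The replicates gave similar totals at the 9 genes. The list of replicate 2 had 181 regions there and that of replicate 3 201. Among the 2478 strongest regions of each, 21 of replicate 2 and 18 of replicate 3 lay at these genes. Of the 20 optimal regions, 14 (70.0%) overlapped one of the strongest regions of both replicates, against 1709 of all 2478 optimal regions (69.0%). Each of the other 6 overlapped one of the strongest regions of a single replicate, 4 of replicate 2 and 2 of replicate 3. The optimal list was made with both replicates, so this overlap is no independent check. The median distance between the optimal summit and the nearest summit of an overlapping replicate region was 10.5 bp in replicate 2 and 11.5 bp in replicate 3. In absolute counts, numbers per gene differed most at EcR, with 30 regions in replicate 2 and 46 in replicate 3 (38.0 ± 11.3, SD, n = 2). Next was Eip75B, with 55 in replicate 2 and 70 in replicate 3 (62.5 ± 10.6, SD, n = 2). In proportion the numbers differed most at Eip93F, with 5 in replicate 2 and 1 in replicate 3.

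**Figure D3:**
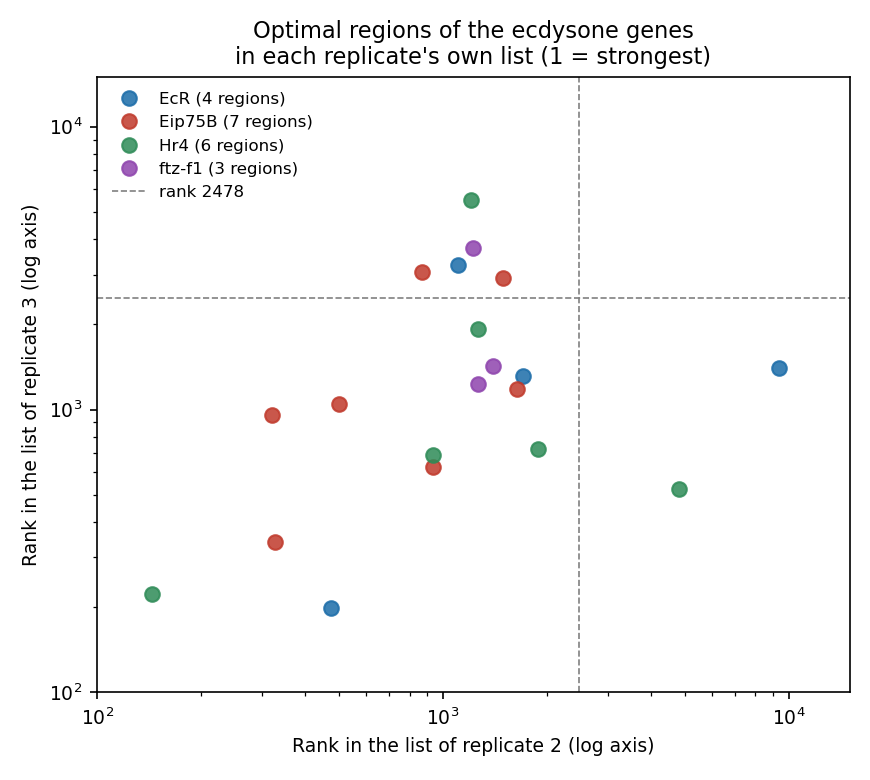
Rank of the 20 optimal regions in the list of replicate 2 (x, log axis) and of replicate 3 (y, log axis), for the replicate region with the nearest summit, coloured by gene; dashed lines mark rank 2478. Of the 20 points, 13 lie within rank 2478 in both replicates, with the strongest region of Hr4 at 144 and 222 at the lower left.

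The letters around the summits were described for the 20 regions beside other regions, in windows of 301 bases on both strands. GAGAG was found in 12 of 20 windows (60.0%), against 38.9% of the other 2458 optimal regions, 34.6% of the other pooled regions and 33.6% of protein-coding start sites. CGATA was found in 8 (40.0%), against 43.9% of the other optimal regions, 34.5% of the other pooled regions and 45.9% of start sites. The longer palindrome TATCGATA, which contains CGATA, was in none of the 20 windows and in 7.69% of the other optimal regions. GGTCACAC, the core of the site of M1BP, and CAGGTAG, the site of Zelda, were in none of the 20 and in 4.39% and 1.42% of the other optimal regions. The inverted repeat bound by the EcR and Usp dimer, with a spacer of 1 base and at most 1 mismatch, was in none of the 20 and in 0.692% of the other optimal regions. CAAGGTCA, the site of Ftz-F1, was in none and in 0.325%, and AGGTCA, which it contains, in 1 of the 20 and in 5.21%. A count of 0 in 20 windows says little about shares this small. The median GC content was 44.5% in the 20 windows, 38.9% in the other optimal regions, 41.9% in the other pooled regions and 41.5% at protein-coding start sites.

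Lists of 61 other genes of the pathway were described in the same way, and all were matched in the annotation, 6 of them by synonym. Of these, 20 had an optimal region and 14 had one at a start site. The shares were 15.5% and 12.6% over all protein-coding genes, and 38.3% and 19.3% over those of 20 kb or more. The 61 genes together spanned 925.0 kb and had 0.0314 optimal regions per kb. That density was 0.0272 over all protein-coding genes and 0.0142 over those of 20 kb or more. Among 11 genes of ecdysone uptake and coregulators, 6 had an optimal region, 5 of them at a start site. The strongest was at Hsp83, which encodes the Hsp90 chaperone (signal 516.4, 120 bp upstream of a start), followed by TP53INP, the Drosophila DOR coactivator (446.6, intronic), E23, an ABC transporter (409.3, 229 bp upstream), and Smr, a corepressor (323.7, intronic, shared with lncRNA:CR43963). The coactivator gene tai had 5 optimal regions on 83.9 kb, the strongest with a signal of 272.9.

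The counts of genes below stand beside 15.5% of all protein-coding genes and 38.3% of those of 20 kb or more with an optimal region. Of 15 other nuclear receptor genes, 5 had an optimal region. The strongest was at Hr3, an early-late gene of the ecdysone cascade, whose intronic region had a signal of 438.9 and is shared with CG12912 and CG46321, followed by Hr78 (166.2), ERR (165.3) and Hnf4 (156.2), each at a start site. The region of Hr78 is shared with asRNA:CR43933 and that of ERR with Atg18a. Of 22 other ecdysone-induced genes 7 had one, led by ImpL2, which encodes a secreted insulin-binding protein (393.6, intronic), Ldh, also called ImpL3 (319.5, 286 bp upstream, shared with lncRNA:CR44522), the glue protein gene Sgs3 (296.4, in its coding exon) and the cell death gene hid (171.2, 300 bp upstream). Of 11 genes of hormone synthesis and turnover 1 had one, mld, a zinc-finger regulator of synthesis (184.5, intronic), and the other 10 had none. In so short a list this count is near the share of 15.5% over all protein-coding genes. Per kb the list had 0.00565 optimal regions, from that 1 region, against 0.0272 over all protein-coding genes. Of the juvenile hormone receptor genes Met and gce, gce had one (176.7, intronic, shared with asRNA:CR44429).

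**Figure D4:**
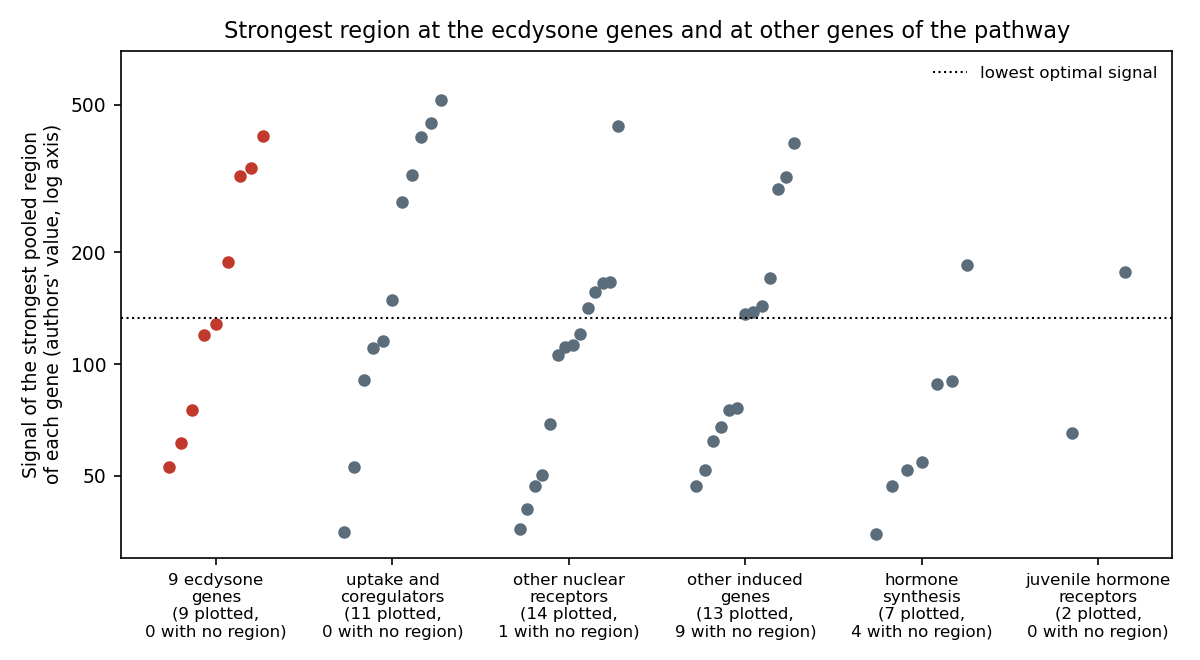
Signal of the strongest pooled region of each gene (log axis, authors' value) for the 9 ecdysone genes (red) and 5 lists of other pathway genes (grey), with genes that have no pooled region counted under the axis. The dotted line is the lowest optimal signal, 132.9. Above it lie 4 of the 9 genes and 1 of the 11 genes of hormone synthesis. An optimal region was found at 15.5% of all protein-coding genes and at 38.3% of those of 20 kb or more.

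Genes with the same number of optimal regions and the nearest span were named beside each gene as the most alike by this measure. For Eip75B the only other gene with 7 was InR, the insulin receptor gene (49.57 kb). For Hr4 (6 regions on 66.52 kb) they were ush (64.84 kb), a cofactor of GATA factors, and tna (41.47 kb). For EcR (4 regions on 81.72 kb) they were px (68.27 kb) and sima, the gene of the fly HIF-alpha protein (63.99 kb). For ftz-f1 (3 regions on 51.20 kb) they were CG34417 (48.90 kb) and Syp (54.50 kb).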

How the data were processed

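Whole embryos of a transgenic line were assayed by ChIP-seq for CG8290 (ADD1), in 2 biological replicates. Chromatin was sonicated to 200 to 800 bp, per the labels. Per the file headers and the labels, the authors deposited lists of regions in dm6 coordinates for each replicate, a list for the whole series taken here as the pooled replicates, and an optimal list cut by IDR, with a signal value per region. The replicate and pooled lists hold peaks and background. The sources used here do not name the aligner, the caller or the cutoff. The deposited text names a further file behind both replicate lists, without its role.

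Summits were compared with Ensembl release 115 gene models, whose coordinates for the 9 genes are identical in RefSeq's annotation of the dm6 assembly, using Python 3.11.15 and matplotlib 3.10.9. Transposable elements were left out of the genes. Density is regions per kb of gene body joined with windows of 500 bp around start sites. A replicate region was shared when it overlapped an optimal region by 1 bp. Motifs were searched within 150 bp of summits on both strands; CAAGGTCA contains AGGTCA and TATCGATA contains CGATA. Counting was tested on simulated data. The genes, gene lists, motifs and alternatives were chosen with earlier results of these data known. Named genes are the 9 genes, up to 4 genes of each list with the strongest optimal regions (tai and the neighbours CycT, Cchl and ND-42 were added after their values were seen), genes that share a region, and up to 2 genes most alike in number and span. No test between groups was made, since there is 1 group without controls. Replicates are separate biological samples per the labels, and n = 2 limits their SD.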

Additional observations from a re-analysis of the deposited data

How the results depend on the processing

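Of 27 recomputed values for the number of genes with a start site region, the number and density of regions, the overlap with replicates and the other pathway genes, 23 stayed within 1.5 times the reported one. The 27 are not independent, since each density was recomputed from the matching count. Counting distinct intervals could change neither, as all 20 regions were distinct already. The overlap with replicates was 10 of 10 regions in the stronger 1239, against 14 of 20, so those counts have different totals. Start site windows of 200 or 1000 bp left 3 of the 9 genes with an optimal start site region. With the stronger 1239 optimal regions the number at the 9 genes was 10 and the density 0.0174 per kb, as fewer regions were counted by construction. Each replicate's own strongest regions gave 18 to 21 regions, 0.0313 to 0.0365 per kb and 2 to 3 genes with a start site region. EcR lost its start site region without replicate 3. Eip74EF gained 1 region without replicate 2. No paired analysis was possible because there was 1 group and no comparison between groups. For the 61 other pathway genes, in alternatives chosen after seeing the data, the number with a start site region of 14 moved to 8 with a window of 200 bp and to 4 with the stronger 1239 regions, and was 10 in either replicate's own list. Read depth is unknown, and regions near the threshold, such as those at usp, Hr4-RE and Eip74EF, may fall on either side of it.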
